A study of Mus musculus with 6 samples.

Results

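The 34 transcripts described here encode the enzymes of cholesterol and fatty acid synthesis that are known targets of the sterol regulatory element binding proteins (SREBPs), together with the SREBPs and the proteins that hold or release them. They were taken from the deposited gene table by gene symbol, 34 of its 53715 genes. The sterol branch held 18 of them, the regulators 5 and the fatty acid branch 11. All 34 passed the filter of a mean of 1 FPKM (fragments per kilobase, corrected for library depth) over the 6 libraries, as did 12257 genes in all.

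The cells were an immortalized mouse podocyte line of kidney origin, differentiated away from the permissive temperature on type I collagen. All 6 libraries shared growth at 33 °C in 10% serum and then differentiation at 37 °C in 5% serum for 10 to 14 days. Podocytes are the epithelial cells that cover the glomerular capillaries. The control group of 3 libraries carried the genotype WT and received a scrambled siRNA. The other group of 3 libraries was marked as a TFEB knockdown and received an siRNA against Tfeb, a transcription factor known for activating lysosome and autophagy genes. Neither the sequence nor the dose or duration of the siRNA was given in the sources used here, and a single line stands for the cell type.

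SREBPs are made as membrane proteins of the endoplasmic reticulum. When membrane cholesterol is low, the escort protein SCAP carries them to the Golgi, where the site-1 and site-2 proteases release the domain that enters the nucleus. INSIG proteins retain SCAP in the endoplasmic reticulum when sterols are plentiful. SREBP-2, from Srebf2, is known mainly for cholesterol genes, and SREBP-1, from Srebf1, for fatty acid genes, with the NF-Y factor as a common partner on promoters.

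Tfeb itself stood at 1.80, 2.05 and 2.27 FPKM with the scrambled siRNA and at 0.639, 0.714 and 0.822 FPKM with the Tfeb siRNA, 2.82-fold lower (log2 fold change -1.05, SE 0.13, adjusted p = 0.00148). The libraries held 18062898 to 20610888 derived reads. Of 14 podocyte markers 8 passed the filter, 2 rose (among them Podxl, 8.72 to 15.8 FPKM) and 1 fell (Synpo, 74.4 to 47.6). The defining markers Nphs1 (group means 0.232 and 0.0651 FPKM) and Wt1 (0.504 and 0.373) were below the filter, so the labelled cell type was not marked by them. Summed podocyte markers ranged from 476.5 to 502.8 FPKM with the scrambled siRNA and from 476 to 481.7 FPKM with the Tfeb siRNA. Summed mesangial or fibroblast markers ranged from 1501 to 1612 and from 1442 to 1465 FPKM, most of it Acta2. Of the 4 of them that were tested, 1 rose, Col1a1, from 2.54 to 7.31 FPKM. Summed adipocyte or hepatocyte markers, from cell types with high lipid synthesis, were at most 0.1758 and 0.1528 FPKM. The part of these markers in the differences below was not tested. In bulk RNA, fewer cells of a type and less RNA per cell cannot be told apart.

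After Tfeb siRNA, transcripts of the pathway moved in both directions and by small amounts. Of the 34 transcripts, 7 rose, 5 fell and 22 were not called. Those that rose were Insig1, Stard4, Fads1, Mvd, Acaca, Fdft1 and Fasn, and those that fell were Ebp, Lss, Nsdhl, Scd2 and Msmo1. None changed by as much as 2-fold, and the largest log2 fold change was 0.55, for Insig1. Over all tested genes 33.3% were called, 16.9% higher and 16.4% lower, so that the 12 called of 34 are close to the share among all genes. The groups did not overlap for 18 of the 34 transcripts, 11 higher and 7 lower, against 48.7% of all tested genes. The median log2 fold change was -0.0018 for the 34 transcripts and 0.015 for all tested genes, and the median absolute change was 0.15 and 0.19. The plot of levels by library shows the spread within each group.

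**Figure D1:**
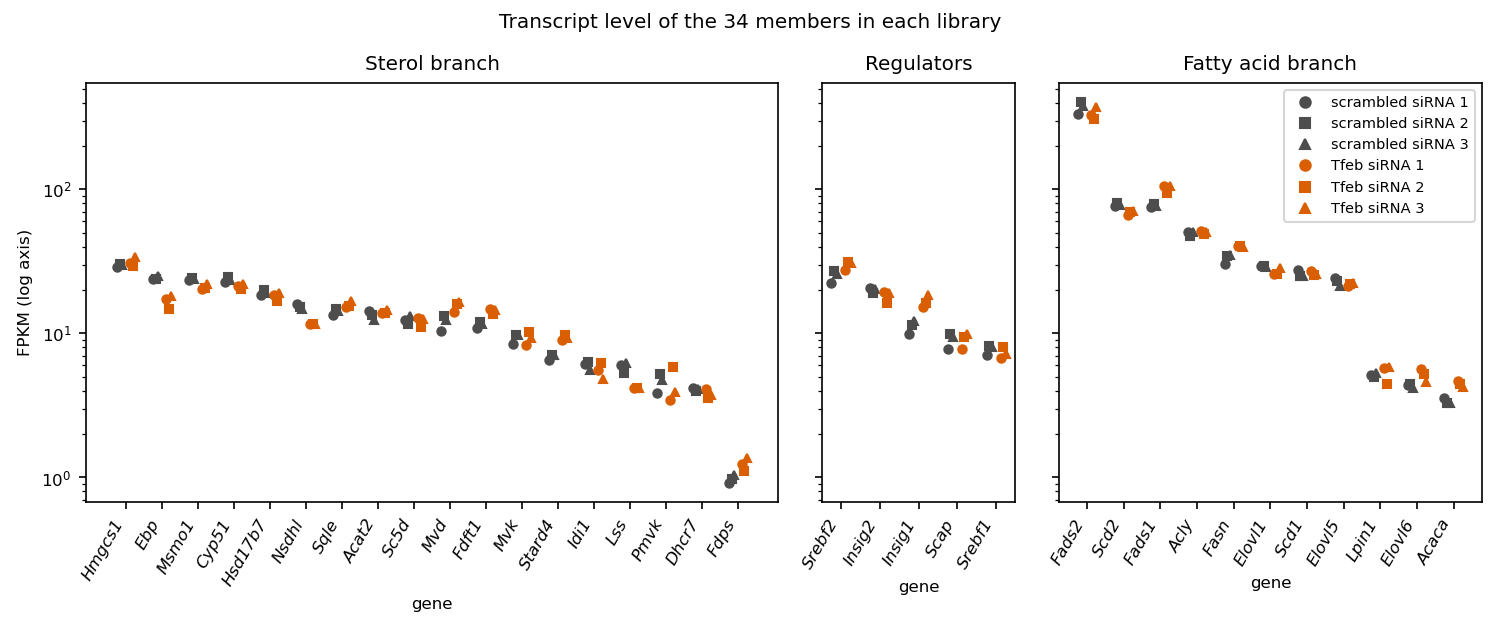
Level of the 34 transcripts in FPKM on a log axis, grouped by sterol branch, regulators and fatty acid branch and ordered by level within each; every point is 1 library, grey for the scrambled siRNA and orange for the Tfeb siRNA. Levels run from about 1 FPKM for Fdps to between 308 and 407 FPKM for Fads2, and for each transcript the groups lie close together beside this range.

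Among the regulators, 1 of 5 rose, none fell and 4 were not called; the median log2 fold change was -0.0030. Insig1 (ENSMUSG00000045294, chromosome 5, 28071363 to 28078662, plus strand, mm10) encodes an anchor that retains SCAP and is itself a classical SREBP target. Its level was 9.95, 11.5 and 12.1 FPKM in the 3 control libraries and 15.3, 16.3 and 18.3 FPKM after Tfeb siRNA, each in the order of replicates 1, 2 and 3. Every Tfeb siRNA library lay above every scrambled siRNA library, and replicate 1 was the lowest of its group on both sides. The mean went from 11.2 ± 1.13 to 16.6 ± 1.56 FPKM (SD, n = 3), 1.49-fold (log2 fold change 0.55, SE 0.09, adjusted p = 0.00524). Insig2, the second anchor, which is not an SREBP target in the same way, did not pass the test. It stood at 20.6, 19.1 and 20.3 FPKM in the controls and at 19.5, 16.3 and 19.1 FPKM after Tfeb siRNA, and the groups overlapped (log2 fold change -0.13, SE 0.08, adjusted p = 0.232).

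Srebf2 was measured at 22.3, 27.04 and 25.8 FPKM with the scrambled siRNA and at 27.4, 31.4 and 30.9 FPKM with the Tfeb siRNA. The groups did not overlap, but the lowest Tfeb siRNA library, replicate 1, was close to the highest control. The means were 25.1 ± 2.47 and 29.9 ± 2.18 FPKM (log2 fold change 0.25, SE 0.09, adjusted p = 0.0652), which misses the threshold. With the replicate number as a block, which takes up the low replicate 1 of each group, the adjusted p was 0.00838, and it was 0.0379 without both replicate 1 libraries. Srebf1 stood at 7.08, 8.14 and 8.11 FPKM and at 6.77, 7.99 and 7.19 FPKM, with overlapping groups (log2 fold change -0.08, adjusted p = 0.485). Scap, the escort, stood at 7.78, 9.94 and 9.52 FPKM and at 7.81, 9.43 and 9.92 FPKM. Its replicate 1 libraries were low in both groups and its log2 fold change was -0.0030 (95% interval -0.28 to 0.27, adjusted p = 0.988).

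Of the 11 tested genes for SREBP cleavage and sterol-regulated degradation, 3 rose, 3 fell and 5 did not pass, with a median log2 fold change of 0.08. Rnf145, a ubiquitin ligase of the endoplasmic reticulum known to act on SCAP, stood at 11.2, 13.0 and 11.4 FPKM in the controls and at 23.0, 22.1 and 25.1 FPKM after Tfeb siRNA. The groups were far apart, 1.97-fold in the means (log2 fold change 0.95, SE 0.08, adjusted p = 0.00038). Erlin2, part of a complex that removes INSIG and other sterol-sensing proteins, rose from 25.7, 27.4 and 25.6 FPKM to 46.1, 41.3 and 44.6 FPKM, 1.68-fold (log2 fold change 0.73, SE 0.06, adjusted p = 0.000395). Mbtps2, the site-2 protease, fell from 3.67 ± 0.0918 to 2.67 ± 0.148 FPKM (log2 fold change -0.40, SE 0.07, adjusted p = 0.00673). Of its 50-base words 28.9% occur also in other genes, above all Yy2, which lies within it and is listed at 0 in every library. With the replicate block 4 of these 11 genes were called higher, Erlin1 in addition (adjusted p = 0.112 without the block and 0.0252 with it). Among 6 cofactors of SREBPs on promoters, 1 was called, Crebbp, a histone acetyltransferase, which rose from 3.69 to 4.61 FPKM (log2 fold change 0.29, adjusted p = 0.015). With the replicate block 2 of the 6 were called, with Nfya, a subunit of NF-Y, as the second (adjusted p = 0.0929 without the block and 0.0313 with it). The Crebbp call was lost without scrambled siRNA replicate 3, without Tfeb siRNA replicate 2 and without both replicate 1 libraries, with an adjusted p of up to 0.0775.

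**Figure D2:**
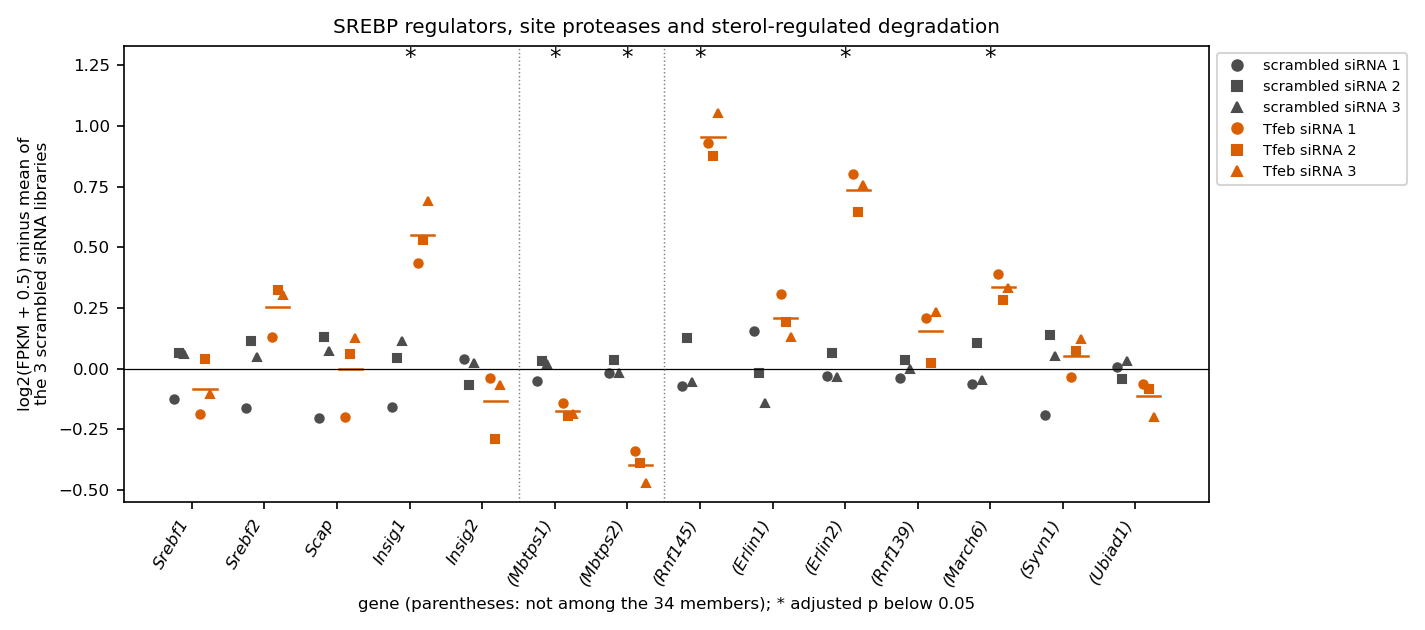
Difference from the scrambled siRNA mean on the log2(FPKM + 0.5) scale for the 5 regulators, the 2 proteases and 7 genes for sterol-regulated degradation; each point is a library, bars are Tfeb siRNA means and asterisks mark an adjusted p below 0.05. Insig1 (0.55), Rnf145 (0.95) and Erlin2 (0.73) lie highest, and Mbtps2 (-0.40) lies lowest.

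Of the 18 transcripts of the sterol branch, 3 rose, 4 fell and 11 were not called, with log2 fold changes from -0.54 to 0.41 and a median of -0.05. Set in the order of the pathway, the members that rose and those that fell took different stretches. Of 9 members from acetyl-CoA to squalene epoxide, 2 rose and none fell. Of 8 members from lanosterol to the last reductases, none rose and 4 fell, and all 8 had a log2 fold change below 0. This division of the pathway was chosen after the values were seen and was not tested, and 1 of the 8, Sc5d, went above 0 without scrambled siRNA replicate 3 (0.01) or Tfeb siRNA replicate 2 (0.04). The summed level of the branch was 230.9 to 242 FPKM in the controls and 224.8 to 238.5 FPKM after Tfeb siRNA, and these ranges overlapped.

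In the early stretch, Mvd (chromosome 8, 122433601 to 122443422, minus strand) encodes the decarboxylase that makes isopentenyl diphosphate. It stood at 10.4, 13.3 and 12.3 FPKM with the scrambled siRNA and at 14.0, 16.0 and 16.5 FPKM with the Tfeb siRNA. The groups were separate, with replicate 1 lowest in each. The means were 12.0 ± 1.46 and 15.5 ± 1.32 FPKM, 1.30-fold (log2 fold change 0.36, SE 0.10, adjusted p = 0.0313). The call was lost without a filter on low values (adjusted p = 0.0812) and without scrambled siRNA replicate 1 (0.0608), scrambled siRNA replicate 3 (0.0677), Tfeb siRNA replicate 2 (0.0933) or Tfeb siRNA replicate 3 (0.0952).

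Fdft1 (chromosome 14, 63145150 to 63179578, minus strand) encodes squalene synthase, the first step committed to sterols. Its level was 10.97, 12.01 and 11.65 FPKM in the controls and 14.8, 13.6 and 14.6 FPKM after Tfeb siRNA. The lowest Tfeb siRNA library was above the highest control, and the means were 11.5 ± 0.528 and 14.3 ± 0.640 FPKM, 1.24-fold (log2 fold change 0.30, SE 0.06, adjusted p = 0.00914). Without both replicate 1 libraries the adjusted p was 0.0507. Ctsb lies on the opposite strand and overlaps 18.3% of the exon bases of Fdft1, and whether strand was used in counting is not given in the sources used here. Ctsb went from 113 to 103 FPKM and did not pass the test (adjusted p = 0.118).

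The other 7 members of the early stretch did not pass the test. Hmgcs1, the synthase at the head of the mevalonate pathway, stood at 28.7, 30.5 and 29.8 FPKM and at 30.6, 29.5 and 34.1 FPKM, with overlapping groups (log2 fold change 0.08, 95% interval -0.08 to 0.23, adjusted p = 0.406). Acat2, which condenses acetyl-CoA ahead of it, had a log2 fold change of 0.08 (adjusted p = 0.408), and 39.1% of its 50-base words occur also in other genes, above all Acat3. The mevalonate kinases Mvk (log2 fold change -0.00068, 95% interval -0.22 to 0.22) and Pmvk (-0.08, -0.51 to 0.36) were lowest in replicate 1 of both groups. Idi1, the isopentenyl diphosphate isomerase, had a log2 fold change of -0.11 (adjusted p = 0.431). Of its 50-base words 25.3% occur also in other genes, above all Gm13502, listed at group means of 15.0 and 13.7 FPKM.
Squalene epoxidase, from Sqle, stood at 13.5, 14.8 and 14.2 FPKM in the controls and at 15.2, 15.6 and 16.7 FPKM after Tfeb siRNA. These groups did not overlap, but the difference of 0.15 (SE 0.06) gave an adjusted p of 0.0926. Fdps, farnesyl diphosphate synthase, was listed at 0.912, 0.976 and 1.03 FPKM and at 1.25, 1.10 and 1.37 FPKM. Those values rest on 256 and 299 reads per group, 26.2% of its 50-base words are shared with other genes, and its adjusted p was 0.196, so its level is uncertain. Of these genes, Gm43738 (23.4% of the words) was listed at 0 in every library. Gm3571 (12.1%) was listed at group means of 10.5 and 12.7 FPKM, with 693 and 770 reads. How the counting split reads between Fdps and Gm3571 is not given in the sources used here.

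In the late stretch, Ebp (chromosome X, 8185329 to 8193512, minus strand) had the largest fall of the 34. Ebp is the sterol isomerase that shifts the double bond of the sterol ring. Its level was 24.0, 23.7 and 25.2 FPKM in the controls and 17.2, 14.7 and 18.1 FPKM after Tfeb siRNA, so that all 3 treated libraries were well below the controls. The means were 24.3 ± 0.785 and 16.7 ± 1.78 FPKM, 1.46-fold lower (log2 fold change -0.54, SE 0.08, adjusted p = 0.00333). Lss (chromosome 10, 76531588 to 76557138, plus strand) encodes lanosterol synthase, which closes the sterol rings. It stood at 5.99, 5.31 and 6.22 FPKM and at 4.21, 4.15 and 4.15 FPKM. The Tfeb siRNA libraries were nearly equal and below every control, 1.40-fold lower in the mean (5.84 ± 0.475 to 4.17 ± 0.0331 FPKM, log2 fold change -0.44, SE 0.07, adjusted p = 0.00456).

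Nsdhl (chromosome X, 72918557 to 72958514, plus strand) and Msmo1 (chromosome 8, 64718139 to 64733792, minus strand) take part in the removal of the methyl groups at carbon 4 of the sterol. Nsdhl stood at 15.9, 15.2 and 14.7 FPKM in the controls and at 11.6, 11.6 and 11.7 FPKM after Tfeb siRNA. The treated libraries were again nearly equal, and the means of 15.3 ± 0.584 and 11.6 ± 0.0366 FPKM gave a 1.31-fold lower level (log2 fold change -0.38, SE 0.05, adjusted p = 0.00198). Msmo1 stood at 23.3, 24.3 and 23.9 FPKM and at 20.3, 20.6 and 22.1 FPKM, separate but closer, 1.13-fold lower (log2 fold change -0.18, SE 0.05, adjusted p = 0.0367). That call was lost in 8 of 13 alternatives, among them no filter on low values (adjusted p = 0.0516) and leaving out any library except Tfeb siRNA replicate 3 (up to 0.106). Cyp51, the lanosterol demethylase, stood at 22.9, 24.5 and 23.5 FPKM and at 21.2, 20.3 and 21.9 FPKM. Its groups did not overlap, but its adjusted p was 0.0591 (log2 fold change -0.16, SE 0.05), and 0.0335 on TPM values.

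The remaining late enzymes did not pass the test, and their groups overlapped. Hsd17b7, the 3-ketosteroid reductase of the demethylation complex, had a log2 fold change of -0.08 (95% interval -0.23 to 0.07). For Dhcr7, the 7-dehydrocholesterol reductase, it was -0.10 (-0.27 to 0.08), and for Sc5d, the sterol desaturase, -0.03 (-0.21 to 0.15).
Stard4 (chromosome 18, 33199355 to 33213862, minus strand) encodes a soluble protein that moves cholesterol between membranes and is a known SREBP target. It stood at 6.59, 7.08 and 7.10 FPKM in the controls and at 9.01, 9.82 and 9.29 FPKM after Tfeb siRNA. The groups were far apart beside their spread, 6.92 ± 0.288 and 9.38 ± 0.410 FPKM, 1.35-fold (log2 fold change 0.41, SE 0.06, adjusted p = 0.00277).

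Of 8 other tested genes of cholesterol synthesis, 2 rose, 3 fell and 3 did not pass, with a median log2 fold change of -0.05. Por, the electron donor of Cyp51 and Sqle, rose 1.29-fold (log2 fold change 0.36, adjusted p = 0.0108). Ggps1, which leads farnesyl diphosphate away from sterols to geranylgeranyl diphosphate, fell by 0.46 on the log2 scale (adjusted p = 0.00617). Cyb5r3, the cytochrome b5 reductase that supplies sterol oxidation, fell by 0.27 (adjusted p = 0.020), a call lost in 6 alternatives (adjusted p up to 0.0727). Of these, 4 left out a single library, scrambled siRNA replicate 2 or 3 or Tfeb siRNA replicate 1 or 2.

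**Figure D3:**
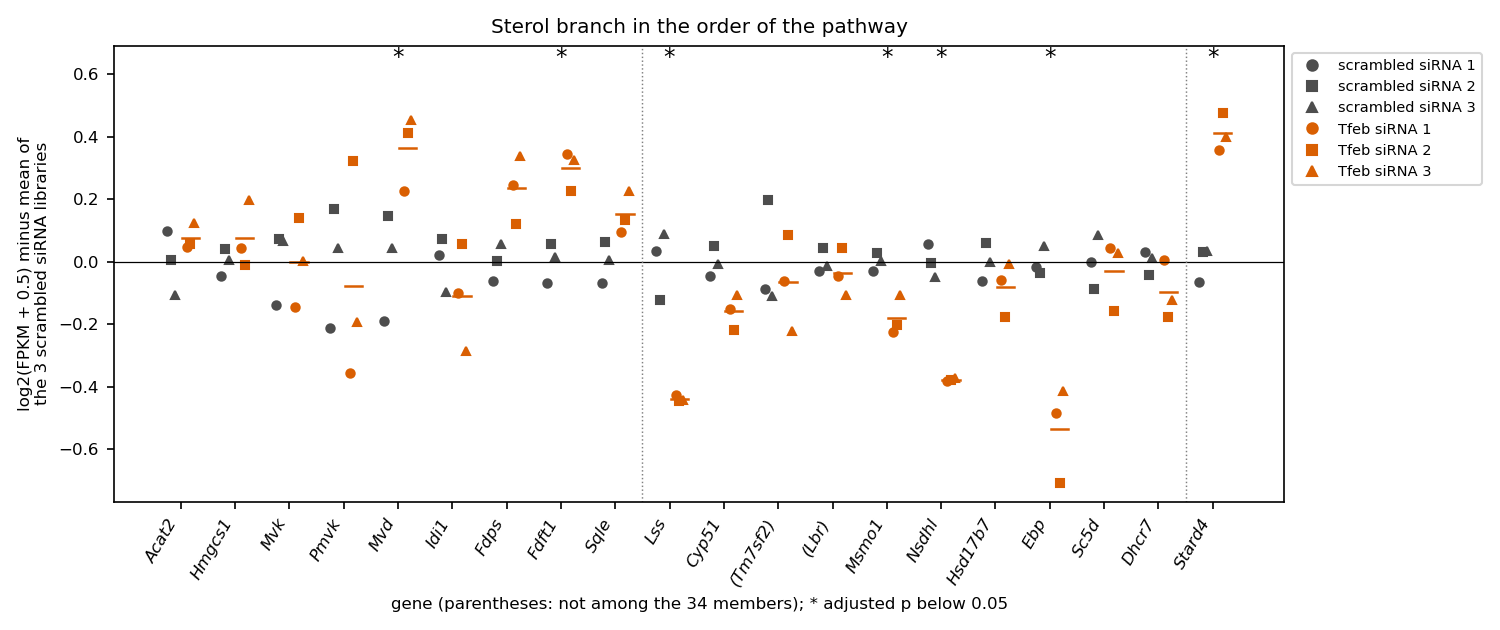
Sterol branch in pathway order from Acat2 to the last reductases, with further genes of the pathway in parentheses; the vertical axis is the difference from the scrambled siRNA mean on the log2(FPKM + 0.5) scale, points are libraries, bars are Tfeb siRNA means, asterisks mark an adjusted p below 0.05 and dotted lines part the early stretch, the late stretch and Stard4. Mvd (0.36) and Fdft1 (0.30) lie above 0 in the early stretch, and Lss (-0.44), Nsdhl (-0.38) and Ebp (-0.54) lie below 0 in the late stretch.

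In genes that handle finished cholesterol, 3 of 15 rose, 2 fell and 10 did not pass, with a median log2 fold change of 0.09. Gramd1a, a sterol transfer protein at contacts with the plasma membrane, rose by 0.32 (adjusted p = 0.0192), and Stard3, which tethers late endosomes to the endoplasmic reticulum, rose by 0.30 (adjusted p = 0.017). Stard5, a relative of Stard4, fell by 0.34 on the log2 scale (adjusted p = 0.0137), and Gramd1b fell by 0.35 (adjusted p = 0.0468). The Gramd1b call was lost in 10 of 13 alternatives, among them the replicate block (adjusted p = 0.0678) and each library left out. With the block 4 of the 15 genes were called higher and 1 lower, with Nceh1 added (adjusted p = 0.0686 without the block and 0.035 with it). The Gramd1a call was lost in 4 alternatives (without scrambled siRNA replicate 1 or 2 or Tfeb siRNA replicate 2 or 3, adjusted p up to 0.0625) and the Stard3 call in 3 (without scrambled siRNA replicate 2, Tfeb siRNA replicate 3 or both replicate 1 libraries, up to 0.0824).

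Of the 11 transcripts of the fatty acid branch, 3 rose, 1 fell and 7 were not called, with log2 fold changes from -0.19 to 0.40 and a median of 0.02. Acaca, the first committed step, Fasn, the synthase, and Fads1 rose, and Scd2 fell. The summed level of the branch was 662.5 to 738.9 FPKM in the controls and 648.7 to 728.9 FPKM after Tfeb siRNA, most of it from Fads2 and the other desaturases.

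Acly, which makes cytosolic acetyl-CoA from citrate, stood at 50.7, 47.7 and 50.4 FPKM in the controls and at 51.6, 49.1 and 50.4 FPKM after Tfeb siRNA. The groups overlapped, and the log2 fold change of 0.02 had a 95% interval from -0.09 to 0.14 (adjusted p = 0.764). Acaca (chromosome 11, 84129672 to 84401651, plus strand), the acetyl-CoA carboxylase of the cytosol, stood at 3.55, 3.31 and 3.26 FPKM and at 4.69, 4.46 and 4.28 FPKM. The groups were separate, 3.37 ± 0.156 and 4.48 ± 0.207 FPKM, 1.33-fold (log2 fold change 0.36, SE 0.07, adjusted p = 0.00811). Of its 50-base words 30.4% occur also in other genes, above all Gm5182, which was itself called higher (6.56 to 8.93 FPKM), and how the counting split reads between the pair is not given in the sources used here. Fasn (chromosome 11, 120805846 to 120824547, minus strand), the multi-domain fatty acid synthase, stood at 30.5, 34.4 and 35.1 FPKM and at 40.3, 40.4 and 39.9 FPKM. The treated libraries were tightly grouped above the controls, 33.3 ± 2.50 and 40.2 ± 0.233 FPKM, 1.21-fold (log2 fold change 0.27, SE 0.06, adjusted p = 0.0171). Without Tfeb siRNA replicate 2 the adjusted p of Fasn was 0.0511.

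The 4 desaturases lie on chromosome 19 as the pair Fads1 and Fads2 and the pair Scd1 and Scd2. In each pair 1 member passed the test. Scd4 (44333092 to 44346743), below the filter, lies between Scd2 and Scd1. Fads1 (10182888 to 10196870, plus strand) encodes the delta-5 desaturase of polyunsaturated fatty acids. It stood at 75.5, 79.7 and 76.4 FPKM in the controls and at 105.5, 95.04 and 105.5 FPKM after Tfeb siRNA. All treated libraries were above the controls, 77.2 ± 2.21 and 102 ± 6.05 FPKM, 1.32-fold (log2 fold change 0.40, SE 0.06, adjusted p = 0.00313). Fads2 (10064164 to 10101503, minus strand), the delta-6 desaturase, had the highest listed level of the 34. It stood at 334, 407 and 379 FPKM in the controls and at 328, 308 and 370.5 FPKM after Tfeb siRNA, with wide and overlapping groups (log2 fold change -0.15, 95% interval -0.39 to 0.08, adjusted p = 0.269). The deposited lengths of Fads1 and Fads2 were 3456 and 1508 bases, against 4812 and 3295 exon bases in the GENCODE M21 annotation. Their FPKM levels depend on the length used.

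The stearoyl-CoA desaturases introduce the first double bond of oleate. Scd2 (44293676 to 44306864, plus strand) stood at 77.0, 80.0 and 78.3 FPKM with the scrambled siRNA and at 66.3, 69.2 and 71.1 FPKM with the Tfeb siRNA. The groups did not overlap, 78.4 ± 1.52 and 68.9 ± 2.43 FPKM, 1.14-fold lower (log2 fold change -0.19, SE 0.05, adjusted p = 0.0258). The call was lost without scrambled siRNA replicate 2 (0.0812) or 3 (0.0797), Tfeb siRNA replicate 1 (0.0806) or 2 (0.0591), or both replicate 1 libraries (0.0755). Scd1 (44394451 to 44407709, minus strand), at 27.4, 24.8 and 25.1 FPKM and 26.995, 25.60 and 25.65 FPKM, showed overlapping groups (log2 fold change 0.02, 95% interval -0.12 to 0.15). The differences between the changes within each pair were not tested.

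The elongases and Lpin1 did not pass the test. Elovl6, which extends palmitate, stood at 4.36, 4.45 and 4.21 FPKM and at 5.64, 5.26 and 4.61 FPKM. Its groups did not overlap (log2 fold change 0.22, SE 0.08, adjusted p = 0.0735), and with the replicate block its adjusted p was 0.0493. Elovl1, for very long saturated chains, stood at 29.5, 29.6 and 28.8 FPKM and at 26.0, 25.8 and 28.5 FPKM, separate by a narrow gap (log2 fold change -0.13, adjusted p = 0.119). Elovl5, for polyunsaturated chains, had a log2 fold change of -0.07 (95% interval -0.21 to 0.08), and Lpin1, a phosphatidate phosphatase, one of 0.04 (-0.20 to 0.29).

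Of 15 other tested genes of fatty acid synthesis and elongation, 2 rose, 4 fell and 9 did not pass, with a median log2 fold change of -0.07. Me1, the malic enzyme that supplies NADPH to Fasn, rose from 32.1 ± 1.07 to 41.8 ± 1.58 FPKM (log2 fold change 0.38, SE 0.05, adjusted p = 0.00233). Aacs, which activates acetoacetate, rose by 0.24 (adjusted p = 0.0271), a call lost in 6 alternatives, of which 5 left out a single library, each one except Tfeb siRNA replicate 1 (adjusted p up to 0.082). Hacd2, a dehydratase shared by the elongases, fell from 10.6 ± 0.889 to 7.40 ± 0.592 FPKM (log2 fold change -0.49, SE 0.08, adjusted p = 0.0052). Mlx, the dimer partner of carbohydrate-response factors, fell from 7.94 ± 0.934 to 5.09 ± 0.993 FPKM (log2 fold change -0.60, SE 0.14, adjusted p = 0.016). Psmc3ip, on the opposite strand, overlaps 19.3% of the exon bases of Mlx. It went from 2.21 to 2.70 FPKM and did not pass the test (adjusted p = 0.175). The Mlx call was lost without a filter on low values and without either group's replicate 3 (adjusted p up to 0.0556). With the replicate block 3 of the 15 genes were called higher and 5 lower. The additions were Mid1ip1, higher (adjusted p = 0.0931 without the block and 0.00629 with it), and Mcat, lower (0.0703 and 0.0238).

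In fatty acid activation and glycerolipid synthesis, 6 of 20 tested genes rose, 4 fell and 10 did not pass, with a median log2 fold change of 0.04. Acsl1, an acyl-CoA synthetase, fell from 6.99 ± 0.506 to 4.11 ± 0.152 FPKM, 1.70-fold lower (log2 fold change -0.70, SE 0.07, adjusted p = 0.000822). Acsl5, a relative of Acsl1, rose from 36.1 ± 1.43 to 47.1 ± 1.34 FPKM (log2 fold change 0.38, SE 0.05, adjusted p = 0.00218). Pcyt1a, the rate-setting enzyme of phosphatidylcholine synthesis, fell by 0.53 on the log2 scale (adjusted p = 0.000537), and Agpat2, which makes phosphatidate, rose by 0.38 (adjusted p = 0.00343). With the replicate block 5 were called higher and 3 lower, as the calls for Agpat4 (adjusted p = 0.0547) and Lpin3 (0.0548) were lost.

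**Figure D4:**
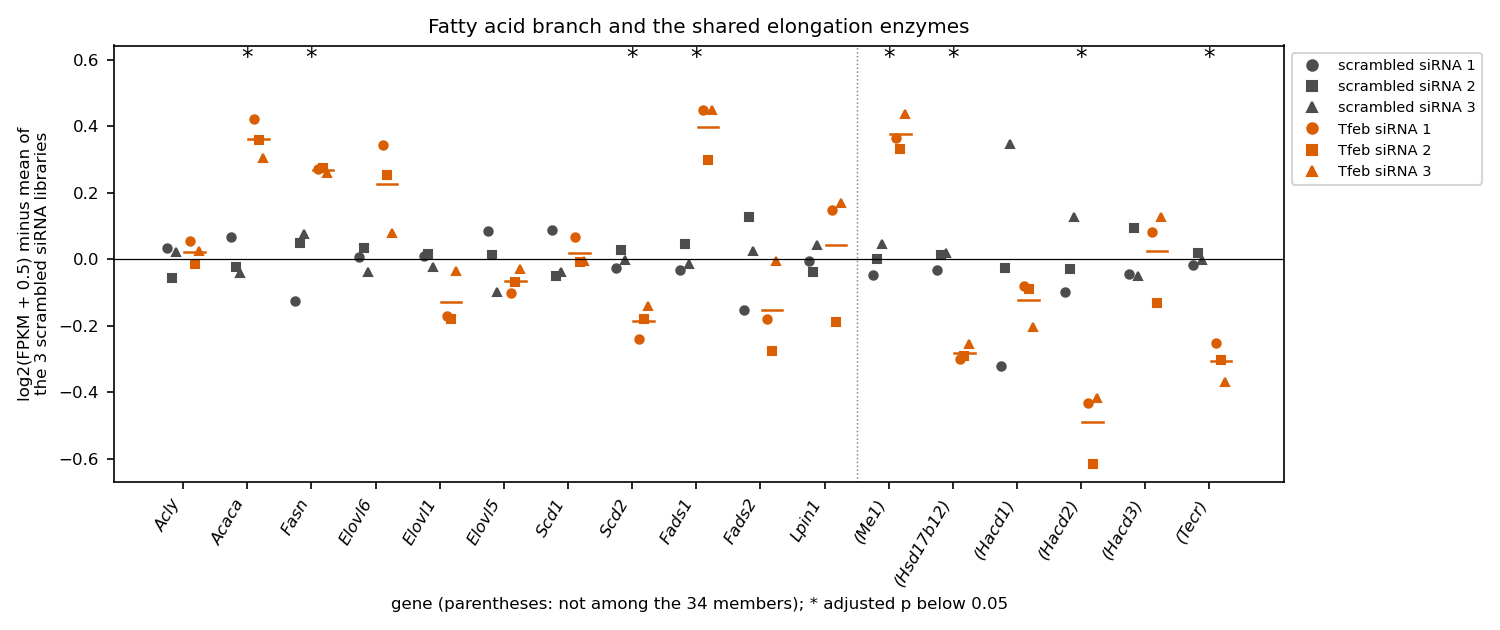
Fatty acid branch with further enzymes in parentheses, as differences from the scrambled siRNA mean on the log2(FPKM + 0.5) scale; points are single libraries, bars are Tfeb siRNA means and asterisks mark an adjusted p below 0.05. Acaca (0.36), Fasn (0.27) and Fads1 (0.40) lie above 0, Scd2 (-0.19) lies below, and Acly and Scd1 (each 0.02) lie on the line.

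Promoter sequences, from 250 bases before to 50 after each transcription start, were taken from RefSeq on GRCm38.p6, and 27 of the 34 genes had an entry, with 36 promoters. Those with no entry were Stard4, Scd1, Sqle, Fdps, Fdft1, Fads1 and Scd2. Printed here are Insig1 and Fasn, which rose, Ebp and Nsdhl, which fell, and Hmgcs1, a textbook SREBP target that did not pass the test, so that the motif content of each kind can be compared. Capitals mark the sterol regulatory element TCACNCCAC, the E-box CACGTG and the NF-Y box CCAAT, which reads ATTGG on the other strand.
Insig1 promoter, chr5:28071162-28071461, plus strand: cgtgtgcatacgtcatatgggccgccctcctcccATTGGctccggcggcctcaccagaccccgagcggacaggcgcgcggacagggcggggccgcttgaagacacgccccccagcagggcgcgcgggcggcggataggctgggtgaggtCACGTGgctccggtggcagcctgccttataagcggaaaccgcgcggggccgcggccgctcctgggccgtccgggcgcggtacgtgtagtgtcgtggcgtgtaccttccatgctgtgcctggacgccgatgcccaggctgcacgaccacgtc
Fasn promoter, chr11:120824498-120824797, minus strand: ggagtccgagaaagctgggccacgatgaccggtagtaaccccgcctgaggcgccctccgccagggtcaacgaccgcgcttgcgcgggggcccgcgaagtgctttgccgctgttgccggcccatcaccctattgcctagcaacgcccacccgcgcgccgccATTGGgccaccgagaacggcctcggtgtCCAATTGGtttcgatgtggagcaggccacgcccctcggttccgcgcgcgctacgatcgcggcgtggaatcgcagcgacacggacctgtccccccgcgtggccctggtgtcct
Ebp promoter, chrX:8193463-8193762, minus strand: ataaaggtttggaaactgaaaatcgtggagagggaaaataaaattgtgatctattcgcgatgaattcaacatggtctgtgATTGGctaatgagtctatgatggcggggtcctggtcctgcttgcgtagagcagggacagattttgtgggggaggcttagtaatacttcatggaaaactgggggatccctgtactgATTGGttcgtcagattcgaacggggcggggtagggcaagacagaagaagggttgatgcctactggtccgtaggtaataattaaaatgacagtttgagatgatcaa
Nsdhl promoter, chrX:72918271-72918570, plus strand: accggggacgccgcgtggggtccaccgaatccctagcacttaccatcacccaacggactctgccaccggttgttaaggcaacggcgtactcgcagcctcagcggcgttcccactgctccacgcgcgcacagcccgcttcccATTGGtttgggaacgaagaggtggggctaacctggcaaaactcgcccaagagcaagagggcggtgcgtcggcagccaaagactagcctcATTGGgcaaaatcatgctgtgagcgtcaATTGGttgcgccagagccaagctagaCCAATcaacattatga
Hmgcs1 promoter, chr13:119690101-119690400, plus strand: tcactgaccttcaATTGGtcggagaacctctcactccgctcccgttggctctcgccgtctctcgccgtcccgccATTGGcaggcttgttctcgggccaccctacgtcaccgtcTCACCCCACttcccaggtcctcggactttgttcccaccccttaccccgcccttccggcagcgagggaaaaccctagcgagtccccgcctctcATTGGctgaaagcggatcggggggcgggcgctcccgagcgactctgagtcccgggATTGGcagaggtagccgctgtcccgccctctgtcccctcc

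Matches were counted on both strands, and a match describes letters only. The sterol regulatory element TCACNCCAC was found in 1 member promoter (2.78%), that of Hmgcs1, 137 bases before the start, against 1.24% of all 32851 promoters of the table and 1.15% of the promoters of tested genes. With 1 more free base (TCACNCNAC, which includes every match of the stricter form), Nsdhl was added and the shares were 5.56%, 2.70% and 2.63%. The NF-Y box CCAAT was found in 61.1% of the member promoters, 37.4% of all promoters and 38% of the promoters of tested genes. It was present in 3 of 4 genes that rose (Fasn, Insig1 and Mvd) and in all 4 that fell (Ebp, Lss, Msmo1 and Nsdhl). Of those that did not pass the test, 14 of 19 had it. With so few called genes that have an entry, these counts cannot show whether the box separates the directions. Counted by gene in the same way, the box was in 21 of 27 members and in 3690 of 8495 tested genes with an entry. The only entry of Acaca, which rose and had no match, was chr11:84195188-84195487. It lies inside the gene, which starts at 84129672.

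The E-box CACGTG, the core of the sites that TFEB and other factors of its class can bind, was found in 19.4% of member promoters, 7.15% of all promoters and 10.1% of those of tested genes. The genes were Insig1, Hsd17b7, Dhcr7, Sc5d, Elovl5 and Scap, of which only Insig1 was called. The share of member promoters counts the same Scap site in both of its overlapping promoters. By gene, the E-box was in 6 of 27 members and in 1024 of 8495 tested genes with an entry. The longer form TCACGTGA, which contains CACGTG, was in 0 member promoters, 0.974% of all and 2.02% of those of tested genes. The E-box windows are shown for Insig1, which rose, and for Hsd17b7, which did not pass the test.
Insig1 window, chr5:28071301-28071326, plus strand: tgggtgaggtCACGTGgctccggtgg
Hsd17b7 window, chr1:169969333-169969358, minus strand: acccttgtgtCACGTGgctccgcccc

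In 3′ UTRs, 8 heptamers were counted that an earlier look at these same fold changes had picked out, so their shares among called genes are a description. The first set, from genes that fell, held CTACATA with the overlapping word TACATAA, and also GGCCATG with the overlapping word GCCATGA. The second set, from genes that rose, held TCGGAGA with the overlapping word CGGAGAA, and also TGTCACG with the overlapping word GTCACGA. In the longest annotated 3′ UTR, on the transcript strand, a word of the first set was present in 33.5% of 10474 tested genes, 48.2% of those that fell and 27.3% of those that rose. For the second set the shares were 9.36%, 6.46% and 16.5%. Among the 34 transcripts, 9 (26.5%) held a word of the first set and 5 (14.7%) one of the second. Of the 7 that rose, Insig1, Acaca and Fads1 held CGGAGAA, and Acaca also held words of the first set. Of the 5 that fell, Lss and Scd2 held a word of the first set, while Ebp, Nsdhl and Msmo1 held none of the 8. All sites found are shown for Insig1, Fads1, Lss and Scd2, with the word in capitals, because these are the called members with words of 1 set only.
Insig1 3′ UTR site: cgagctattcCGGAGAAgggttctcgg
Fads1 3′ UTR site: agatatgttcCGGAGAAtataggaaca
Fads1 3′ UTR site: ctgttccctaTGTCACGttccagcatt
Lss 3′ UTR site: ctttctctctGGCCATGgtgagcgggg
Lss 3′ UTR site: ggcagcctttGGCCATGgtgcactttg
Scd2 3′ UTR site: gagctgagatGCCATGAatttcacaga
Whether these words match either siRNA was not tested.

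Several members had their lowest or highest level in replicate 1 of each group. In 11 of the 34 transcripts (32.4%, against 20.4% of all tested genes), replicate 1 was the lowest library of both groups: Mvk, Pmvk, Mvd, Sqle, Msmo1, Stard4, Insig1, Srebf1, Srebf2, Scap and Scd2. In 5 (14.7%, against 19.4%) it was the highest of both, Dhcr7, Insig2, Acaca, Acly and Scd1. Without both replicate 1 libraries, 9 of the 12 called transcripts were still called, and Fdft1, Msmo1 and Scd2 were lost. With the replicate block all 12 were still called, and Srebf2 and Elovl6 were added, both higher. The labels do not state that replicates were separate cultures. The p-values therefore measure no more than the spread among these 6 samples, and that spread may be technical.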

How the data were processed

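RNA sequencing of 6 podocyte libraries was analysed, 3 with a scrambled siRNA and 3 with a Tfeb siRNA, with groups and replicate numbers taken from the sample titles. RNA was extracted with TRIzol, per the labels' protocols. The authors deposited 1 table of FPKM values with gene positions and lengths, per the file headers. Coordinates follow mm10, per the submitters' processing notes. None of the aligner, counter, annotation release or use of strand was given in the sources used here. The table had 0 unused sample columns. The product of FPKM and gene length came in whole steps in each library for 100% of values (tolerance 1e-06), which gave derived reads and depths of 18062898 to 20610888. Low genes rest on few reads, and this covers counting error only.

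Differences between the groups were tested two-sided with limma 3.58.1 (R 4.3.3) on values of log2(FPKM + 0.5), with eBayes and a mean-variance trend. The 12257 genes whose mean reached 1 FPKM entered, with Benjamini-Hochberg adjustment over all of them and a threshold of 0.05. All adjusted p-values are from limma. Log2 fold changes carry the pseudocount and understate changes of low genes; folds are ratios of mean FPKM. Errors are SD over 3 libraries or SE of the log2 fold change, and intervals are at 95%. An exact permutation test of a single gene with 3 against 3 cannot go below 0.1, so none is given. The script was checked on simulated data.

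The members and lists were chosen with earlier results of these data known. Every member is given; from each further list, up to 2 called genes in each direction, those with the largest changes, are named, with Tfeb and cell type markers. Some genes that this rule picks are not reported here, but the counts and sums of their lists include them. Other genes (partners by overlap or shared words, and genes whose call changed under the block) were named after their values were seen. Of the marker lists not described in the report, keratinocyte markers summed to 4.609 to 5.728 FPKM in controls and 4.999 to 5.34 after Tfeb siRNA, endothelial to 0.2885 to 0.5345 and 0.3368 to 0.4659, kidney tubule to 174.4 to 226.3 and 179.8 to 216.8, and leukocyte to 4.908 to 6.755 and 3.812 to 5.182.

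Residual correlations of same-numbered libraries were 0.382, 0.129 and 0.166, which was taken as pairing by number, from the data and not from the titles. Crossed pairs of numbers 2 and 3 reached 0.106 and 0.0996, so number 1 alone stood clearly apart. The blocked value stands beside a result whose call it changed. Alternatives were pseudocounts of 0.1 and 1, no filter, TPM, no trend, the block and each library left out; leaving out both replicate 1 libraries was chosen after seeing the data. Words of 50 bases shared with other genes, overlaps and 3′ UTRs came from GENCODE M21, which held 12249 of the 12257 tested genes, with the same start and end for 30 of the 34 members. The members that differed were Fads1, Fads2, Scd1 and Scd2.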

Additional observations from a re-analysis of the deposited data

How the results depend on the processing

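Of the 12 called members, 12 were still called with either other pseudocount, on TPM and with the replicate block, 11 with no mean-variance trend, 10 with no filter on low values, 9 without both replicate 1 libraries, and 8 to 11 with a library left out. The count of regulators called higher was 1 as reported and 2 both with the replicate block and without both replicate 1 libraries, and ranged from 1 to 2 with a library left out. The fatty acid branch lost its 1 transcript called lower (0) without both replicate 1 libraries, and this count ranged from 0 to 1 with a library left out. Of the further pathway genes, 17 were called higher, and 11 to 15 with a library left out. Changes of sign touched members with differences near 0 that did not pass the test. On TPM the log2 fold changes of Acly and Scd1 were -0.0064 and -0.011, and without both replicate 1 libraries those of Mvk and Lpin1 were 0.0020 and -0.012. With a library left out, the ranges were -0.071 to 0.071 for Mvk, -0.28 to 0.064 for Pmvk, -0.072 to 0.035 for Sc5d, -0.10 to 0.094 for Scap, -0.0058 to 0.040 for Acly, -0.0076 to 0.062 for Scd1 and -0.021 to 0.16 for Lpin1. Among members, the block changed no call besides those of Srebf2 and Elovl6. Fewer libraries leave fewer degrees of freedom; otherwise the cause was not tested. Fdps had the fewest reads of the members, 256 and 299 per group, and how reads were split with genes that share its words is not given.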
